A study of Mus musculus with 6 samples.

Results

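The 10 genes described here encode proteins that move calcium in and out of the cytosol of heart muscle cells at each beat. They are Ryr2, Casq2, Trdn, Jph2, Atp2a2, Pln, Cacna1c, Cacnb2, Slc8a1 and Camk2d, and they were measured by 35 probe sets out of 38195 on the array, namely all probe sets that the platform annotation assigns to 1 of these symbols and to no other gene. The samples were hearts of 3 Tmbim1 KO mice and 3 Flox wild type mice, each hybridised to an Affymetrix expression array of its own. Both groups were of C57BL/6 background, were given as 8 weeks old, and had aortic banding, a constriction that makes the left ventricle pump against a higher pressure, for 2 weeks before the heart was taken. The comparison asks how the loss of Tmbim1, a membrane protein of endosomes and lysosomes, bears on gene expression in the loaded heart. Which promoter or Cre line, if any, made the deletion, and in which cells of the heart it occurred, is not given in the sources used here, and unoperated hearts were not analysed here. All values are log2 signals, and every difference is KO minus wild type.

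In a cardiomyocyte, the action potential opens L-type calcium channels in the surface membrane, and the calcium that enters makes ryanodine receptors of the sarcoplasmic reticulum release a larger amount, which triggers contraction. For relaxation, the SERCA pump returns calcium to the reticulum under the control of phospholamban, and the sodium-calcium exchanger expels the rest. Pressure-loaded and failing hearts are known for slower calcium release and uptake.

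Tmbim1, the targeted gene, had signals of 7.53, 7.49 and 7.56 in KO hearts, against 8.58, 8.38 and 8.33 in wild type hearts. The KO minus wild type difference was -0.91 (SE 0.10), with a limma adjusted p of 0.00579. The groups did not overlap, in the direction the labels give. The KO signals stayed above the array medians of 4.24 to 4.28, so the values show a lower signal and not an absent transcript. Tissue identity was plain from the general and ventricular muscle markers: Tnnt2 stood at 13.24 to 13.28 in KO hearts and 13.28 to 13.32 in wild type hearts, and Myl2 at 13.57 to 13.65 in KO hearts and at 13.71 in all wild type hearts. Wild type replicate 3 stood apart by a low signal of the matrix gene Postn, periostin, at 11.60, 11.86 and 11.30 in KO hearts, against 11.52, 10.98 and, in wild type replicate 3, 8.98 in wild type hearts. KO replicate 1 stood apart by its atrial genes, with the atrial myosin light chain gene Myl7 at 12.86 there, at 3.90 and 3.71 in the other KO hearts and at 3.45 to 3.80 in wild type hearts. Correlations between arrays ran from 0.989 to 0.996.

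None of the 10 calcium cycling genes passed the test. Of their 35 probe sets, 0 had a limma adjusted p under 0.05, where 0.422% of all probe sets did, and the adjusted p of the members ran from 0.103 to 0.999. Their signals nevertheless lay mostly on the low side in KO hearts, with a negative difference in 29 probe sets and a positive one in 6, where 50.6% of all probe sets were negative. At an unadjusted limma p under 0.05, 11 were lower in KO hearts and 0 higher, or 31.4% lower. Of all probe sets, 10.6% passed that level, 5.82% lower and 4.74% higher in KO hearts. All 3 KO arrays lay below all 3 wild type arrays in 12 member probe sets and above them in 1, where the groups were apart in 15.2% of all probe sets, 8.42% below and 6.74% above. The probe sets of 1 gene share their transcript, so these counts are not counts of independent measurements. The 10 genes were also chosen with earlier results of these data known. The shares over all probe sets therefore stand beside the counts as a description and not as a test of an excess. At the brightest probe set of each gene the 10 differences ran from -0.41 for Ryr2 to -0.00053 for Slc8a1, with a median of -0.18, beside a median of -0.0020 over the brightest probe sets of all 18029 genes. In 7 of the genes every probe set was negative, 18 probe sets in all, whereas Trdn, Slc8a1 and Camk2d had probe sets on both sides of 0.

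**Figure D1:**
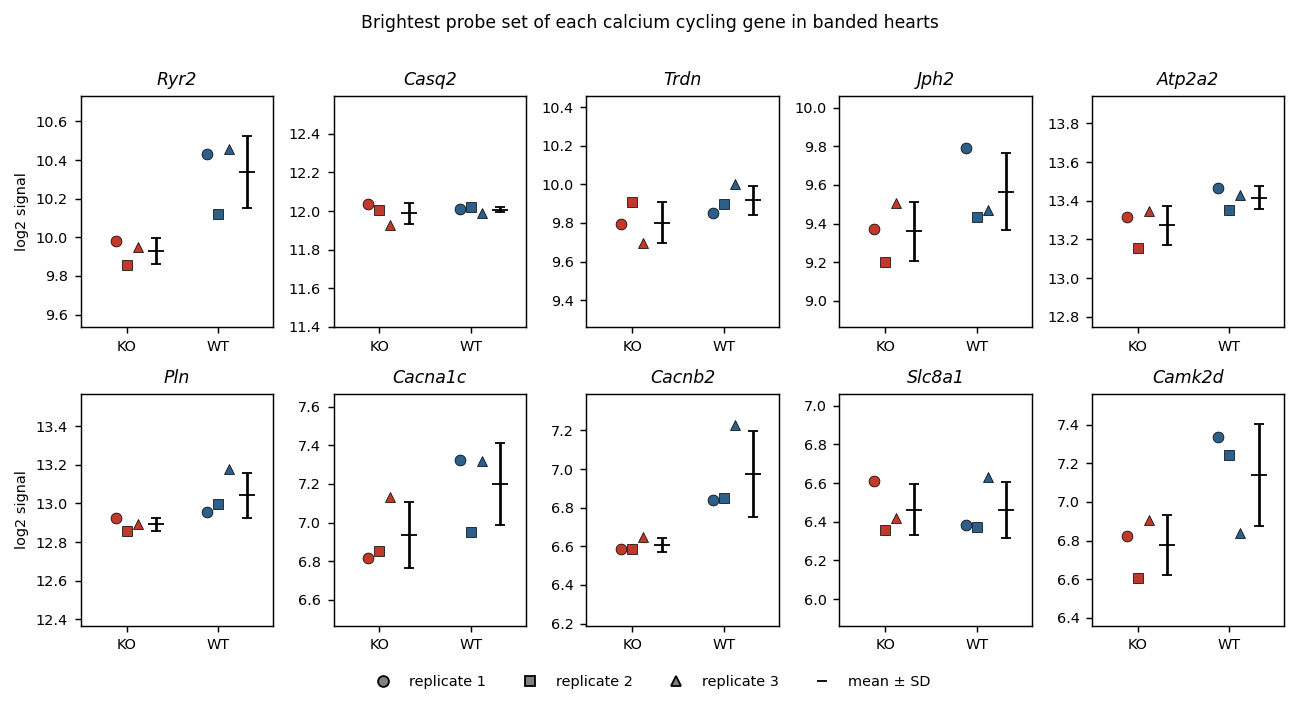
Log2 signal (y axis) of the brightest probe set of each of the 10 genes in the 3 Tmbim1 KO and 3 wild type (WT) hearts; each point is 1 array, its shape gives the replicate number, and black marks show the mean ± SD. Each panel spans the same height of the log2 scale, and the KO and wild type points are apart for Ryr2, Atp2a2, Pln and Cacnb2 and overlap for the other 6 genes. Over the brightest probe sets of all genes, all KO arrays lay below all wild type arrays in 9.38%.

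The general cardiomyocyte markers also lay on the low side. Negative differences were seen in 14 of 14 markers (median -0.10), with 0 past the adjusted threshold and 2 at an unadjusted limma p under 0.05. The log2 of their summed signals was 16.74 to 16.78 in KO hearts and 16.85 to 16.89 in wild type hearts, without overlap. Fibroblast markers were positive in 10 of 12 cases (median 0.33, summed 14.23 to 14.37 in KO hearts and 13.57 to 14.17 in wild type hearts), and macrophage and monocyte markers in 12 of 14 (median 0.35, summed 11.97 to 12.10 in KO hearts and 11.50 to 11.88 in wild type hearts). Of the fibroblast markers, 1 passed the adjusted limma threshold and 6 had an unadjusted p under 0.05, and of the macrophage and monocyte markers 0 and 8. The shares over the brightest probe sets of all genes were 0.549% adjusted and 11.5% unadjusted. The 2 of 14 cardiomyocyte markers are near the unadjusted share. Wild type replicate 3 had the lowest summed signal of both lists, and without it, a setting chosen after seeing the data, the medians were 0.19 for fibroblast markers (9 of 12 positive) and 0.22 for macrophage and monocyte markers (12 of 14 positive), while that of the cardiomyocyte markers was -0.10. RMA signals have no true zero, and 0 of these 3 lists' markers averaged below the lower quartile of the arrays. Several cardiomyocyte markers sit near the top of the scale, such as Mb and Actc1 at wild type means of 13.71 and 13.65. The highest signal on an array was 13.66 to 13.78. Differences there can be compressed, so the median of these markers cannot be ranked against that of the calcium genes. In RNA from whole hearts, fewer muscle cells and less of a transcript per muscle cell cannot be told apart, and the part of this shift in marker signal in the lower values of the calcium genes was not tested.

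Among the genes of calcium release, Ryr2, the ryanodine receptor through which the reticulum releases its calcium, had signals of 9.98, 9.86 and 9.95 in KO hearts, against 10.43, 10.12 and 10.46 in wild type hearts. All KO hearts lay below all wild type hearts, and wild type replicate 2 was the nearest to them. The difference of -0.41 (SE 0.11, 95% interval -0.66 to -0.16), or 1.33-fold lower, had an unadjusted p of 0.00491 and did not pass across all probe sets (limma adjusted p = 0.200). A second, much dimmer Ryr2 probe set overlapped between the groups, at 3.64, 3.65 and 3.52 in KO hearts and 3.81, 3.62 and 4.11 in wild type hearts, with a difference of -0.25.

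Casq2, calsequestrin, which buffers calcium inside the reticulum, was the flattest of the release genes. Its signal was 12.03, 12.00 and 11.93 in KO hearts and 12.01, 12.02 and 11.99 in wild type hearts, a difference of -0.02 with a 95% interval of -0.22 to 0.18 (limma adjusted p = 0.972). The groups overlapped, and shifts as large as -0.22 or 0.18 lie within the interval. Trdn, triadin, which ties calsequestrin to the ryanodine receptor, was read by 6 probe sets with differences from -0.16 to 0.20, and the groups overlapped in every one of them. Its brightest was at 9.80, 9.91 and 9.70 in KO hearts and 9.85, 9.90 and 10.0003 in wild type hearts (difference -0.12, 95% interval -0.34 to 0.11). The probe set with the difference of 0.20 also had the widest spread among the members, with an SD of 0.24 in KO hearts and 0.56 in wild type hearts. Jph2, junctophilin 2, which holds the reticulum close to the surface membrane, had signals of 9.37, 9.20 and 9.50 in KO hearts, against 9.79, 9.43 and 9.47 in wild type hearts. The groups overlapped, with wild type replicate 1 the highest, and the differences of its probe sets were -0.21 (95% interval -0.49 to 0.08) and -0.17.

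The stretches upstream of the transcription starts of Ryr2 and Casq2, the release genes with the lowest and the flattest difference, and of Pln, described next, are printed as examples of the sequence next to member genes. The data hold no measurement of these windows. Each is the 250 bases before a start given by RefSeq on GRCm38.p6, 5′ to 3′ along the gene's strand. Capitals mark E-boxes, CANNTG, a motif bound by basic helix-loop-helix factors that reads the same on both strands, and in Casq2 also a MEF2 box, a motif of muscle gene control searched on both strands, which overlaps no E-box.
Ryr2, chr13:12106946-12107195, minus strand: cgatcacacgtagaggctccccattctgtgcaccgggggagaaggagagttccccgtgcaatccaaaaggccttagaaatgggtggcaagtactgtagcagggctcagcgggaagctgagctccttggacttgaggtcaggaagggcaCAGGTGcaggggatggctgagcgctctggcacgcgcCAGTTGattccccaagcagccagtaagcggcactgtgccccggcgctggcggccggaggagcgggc
Casq2, chr3:102086165-102086414, plus strand: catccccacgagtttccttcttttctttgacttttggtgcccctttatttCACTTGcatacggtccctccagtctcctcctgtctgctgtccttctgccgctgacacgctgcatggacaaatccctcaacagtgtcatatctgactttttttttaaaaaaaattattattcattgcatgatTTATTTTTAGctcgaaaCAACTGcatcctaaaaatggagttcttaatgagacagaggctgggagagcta
Pln, chr10:53337436-53337685, plus strand: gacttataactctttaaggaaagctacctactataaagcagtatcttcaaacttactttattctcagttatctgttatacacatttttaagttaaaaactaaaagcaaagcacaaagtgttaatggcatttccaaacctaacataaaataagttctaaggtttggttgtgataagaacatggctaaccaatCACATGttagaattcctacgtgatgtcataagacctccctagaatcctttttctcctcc
RefSeq windows were found for 8 of the 10 genes, 12 windows in all, and for neither Atp2a2 nor Trdn. An E-box was present in 11 of the 12, where 66.2% of the 32851 windows of the same length over all genes held one. Some genes have several windows and those of Jph2 overlap, so the 12 are not separate sequences. Counted by gene, 7 of the 8 had a window with an E-box. The share over all genes was not counted by gene, and a gene with several windows has more places for a match. The MEF2 box occurred in 1 of the 12, that of Casq2, against 2.92% of all windows, and the CArG box, a site of serum response factor, in 0 of the 12, against 1.47%. A match of letters describes the sequence and is not a measured site.

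Among the genes of calcium uptake, Atp2a2 encodes SERCA2, the pump that refills the reticulum, and was read by 6 probe sets, all negative. At its brightest the signals were 13.32, 13.16 and 13.35 in KO hearts, against 13.47, 13.35 and 13.43 in wild type hearts. The KO hearts lay below the wild type hearts by a narrow gap, and the difference was -0.14 (SE 0.10, 95% interval -0.36 to 0.07, limma adjusted p = 0.690). This probe set sits near the top of the scale, whose highest signal on an array was 13.66 to 13.78, and differences there can be compressed. The other bright ones gave -0.27, with the groups apart, and -0.10, with overlapping groups.

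The 3 dimmer Atp2a2 probe sets gave larger differences, of -0.88, -0.65 and -0.75. Probe set 1437797_at had signals of 7.33, 6.72 and 7.15 in KO hearts, against 7.86, 7.53 and 8.46 in wild type hearts (SE 0.22, limma adjusted p = 0.168). For 1427251_at they were 6.99, 6.51 and 6.87 in KO hearts, against 7.42, 7.24 and 7.68 in wild type hearts (SE 0.15, limma adjusted p = 0.132). The dimmest, 1443551_at, stood at 4.04, 3.82 and 4.09 in KO hearts, against 4.84, 4.35 and 5.003 in wild type hearts (SE 0.16), and its limma adjusted p of 0.103 was the lowest of all 35 probe sets. In each of the 3 all KO hearts lay below all wild type hearts. Without wild type replicate 2 the difference of 1443551_at was -0.94 and passed (limma adjusted p = 0.0313), which no member probe set did with any other single array left out. Which exons or transcript ends each probe set reads was not analysed here, and whether compression near the top of the scale, an isoform or cross-hybridisation plays a part was not tested. The order of the hearts was shared, since KO replicate 2 was the lowest KO array and wild type replicate 2 the lowest wild type array in 6 of 6 Atp2a2 probe sets.

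**Figure D2:**
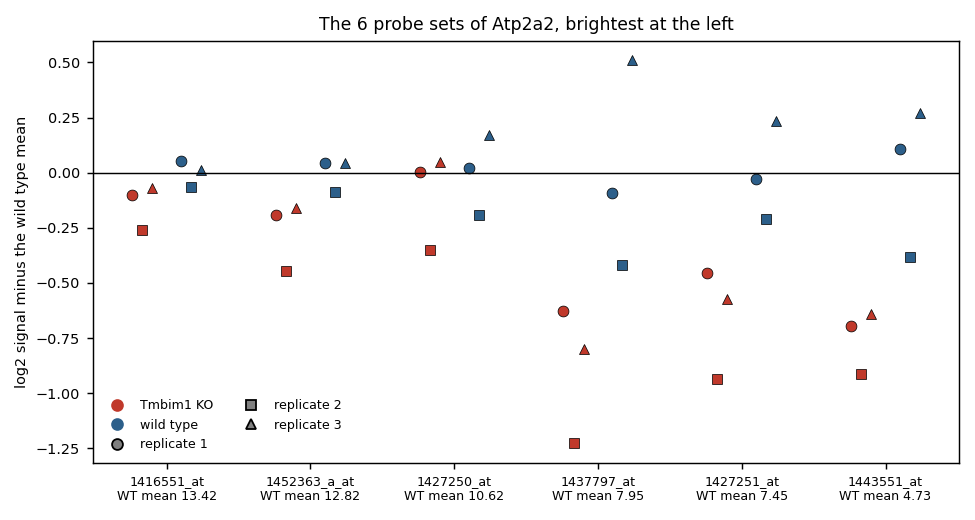
Log2 signal of the 6 Atp2a2 probe sets minus the wild type mean of each (y axis), for the 3 Tmbim1 KO hearts (red, left) and the 3 wild type hearts (blue, right); the probe sets are ordered from the brightest to the dimmest by wild type mean. The 3 probe sets at the right have differences of -0.88, -0.65 and -0.75, and the 3 at the left -0.14, -0.27 and -0.10.

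Pln, phospholamban, restrains the SERCA pump until it is phosphorylated. Its brightest probe set was at 12.93, 12.86 and 12.89 in KO hearts, against 12.95, 13.00 and 13.18 in wild type hearts, and the difference was -0.15 (SE 0.10, limma adjusted p = 0.674). The others gave -0.21 (12.55, 12.55 and 12.61 in KO hearts, against 12.79, 12.77 and 12.79 in wild type hearts) and -0.27 (12.60, 12.33 and 12.43 in KO hearts, against 12.62, 12.63 and 12.92 in wild type hearts). In all 3 probe sets the KO hearts lay below the wild type hearts, in 2 of them by a narrow gap, and none passed. The balance of pump and inhibitor was compared as the log2 signal of Atp2a2 minus that of Pln within each array, at their brightest probe sets. It was 0.39, 0.30 and 0.45 in KO hearts and 0.51, 0.35 and 0.25 in wild type hearts, and these ranges overlap. The 2 groups differed by 0.0059 (two-sided exact permutation test over arrays, p = 1), in a design of 3 against 3 whose smallest possible p is 0.1. Both probe sets lie near the top of the scale, where differences can be compressed. The level of such a ratio depends on the probes, so only its difference between groups can be read. With the mean of all probe sets of each gene in its place, the difference was -0.26 (two-sided exact permutation p = 0.2), which brings in the dimmer Atp2a2 probe sets.

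For calcium entry, Cacna1c encodes the pore of the cardiac L-type calcium channel. Its signals were 6.82, 6.85 and 7.13 in KO hearts, against 7.32, 6.95 and 7.32 in wild type hearts (difference -0.26, SE 0.13), and its second probe set stood at 6.42, 6.38 and 6.43 in KO hearts, against 6.65, 6.54 and 6.85 in wild type hearts (difference -0.27, SE 0.11). The first overlapped between the groups through KO replicate 3 and wild type replicate 2, and the second did not overlap. Neither passed, with limma adjusted p of 0.541 and 0.391. Cacnb2, the beta subunit that brings the pore to the membrane and tunes its opening, was at 6.58, 6.59 and 6.65 in KO hearts, against 6.84, 6.85 and 7.23 in wild type hearts. Its second probe set was at 4.95, 4.72 and 4.91 in KO hearts, against 5.11, 5.17 and 5.43 in wild type hearts. KO hearts lay below wild type hearts in both, with wild type replicate 3 the highest in each, and the differences of -0.37 and -0.37 had limma adjusted p of 0.284 and 0.260.

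Calcium extrusion is represented by Slc8a1, the sodium-calcium exchanger, which had a positive difference in 3 of its 4 probe sets. At its brightest probe set the signals were 6.61, 6.36 and 6.42 in KO hearts, against 6.38, 6.37 and 6.63 in wild type hearts, and the groups overlapped. The difference of -0.00053 had a 95% interval of -0.25 to 0.25 (limma adjusted p = 0.999). Its second probe set was the single member probe set with all KO hearts above all wild type hearts, at 5.73, 5.79 and 5.66 in KO hearts and 5.47, 5.56 and 5.60 in wild type hearts, and the difference was 0.19 (SE 0.09, limma adjusted p = 0.541). The remaining ones, at means near or below the lower quartile of the arrays (2.72 to 2.78), gave 0.01 and 0.09. Within arrays, Slc8a1 minus Atp2a2, the exchanger set against the pump, was -6.70, -6.80 and -6.93 in KO hearts and -7.08, -6.98 and -6.80 in wild type hearts, with overlap. That difference was 0.14 (two-sided exact permutation test over arrays, p = 0.3), and 0.54 with the mean of all probe sets of each gene (two-sided exact permutation p = 0.1, the smallest this design allows). The mean brings in the dimmer Atp2a2 probe sets, with their larger differences, and the dim ones of Slc8a1.

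In the control of these proteins by calcium itself, Camk2d encodes the main cardiac form of the calcium and calmodulin dependent kinase, which phosphorylates both the ryanodine receptor and phospholamban. Its brightest probe set was at 6.82, 6.61 and 6.91 in KO hearts, against 7.34, 7.25 and 6.84 in wild type hearts, and the difference was -0.36 (SE 0.14, limma adjusted p = 0.397). The groups overlapped through wild type replicate 3. The other 6 probe sets ran from -0.38 to 0.08, with overlap in all of them, and 3 of those averaged below the lower quartile of the arrays.

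**Figure D3:**
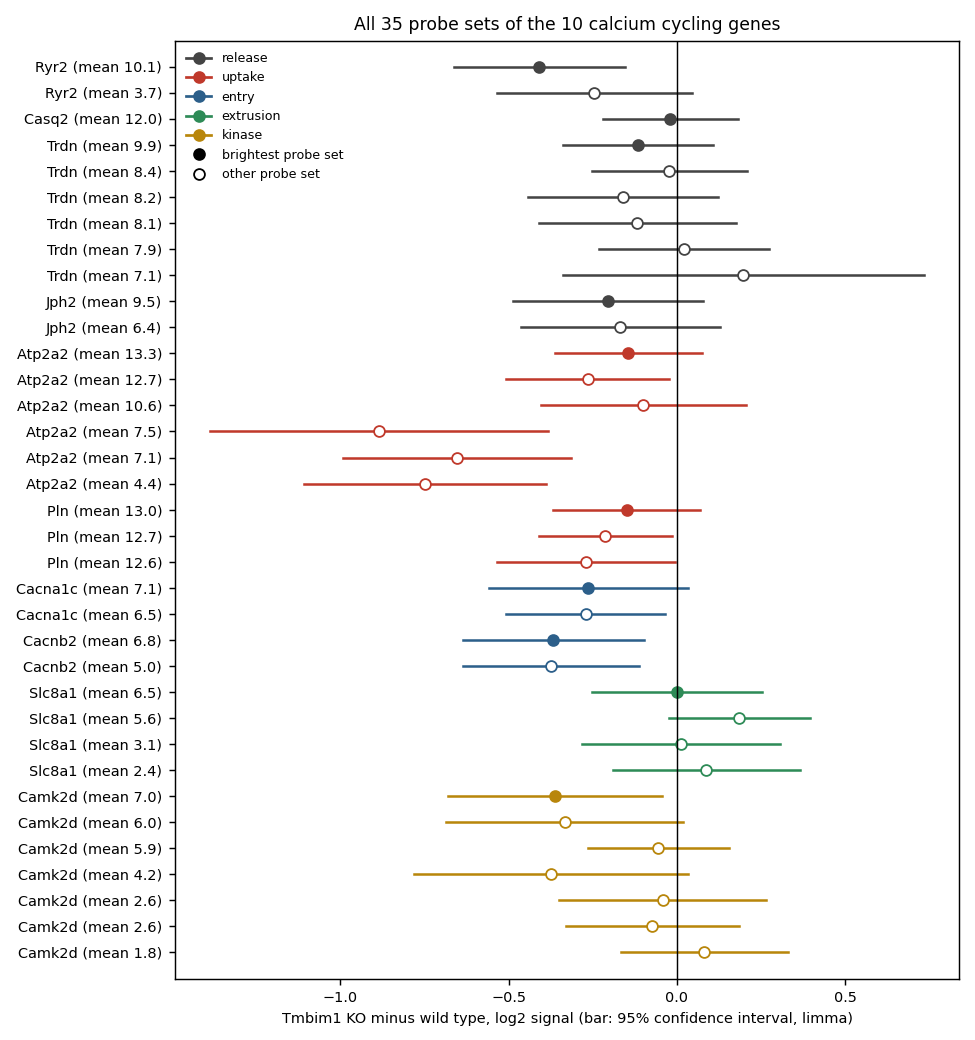
KO minus wild type difference in log2 signal (x axis) with its 95% confidence interval from limma, for all 35 probe sets grouped by the role of the protein; filled points are the brightest probe set of a gene, open points the others, and the mean log2 signal over the 6 arrays is given beside each name. Points lie to the left of 0 for 29 probe sets and to the right for 6, and the lowest, at -0.88, -0.75 and -0.65, belong to Atp2a2.

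Beyond the 10 genes, 63 further genes of calcium handling were listed, and 54 had a probe set with a single symbol. None passed the adjusted threshold by limma, 11 had an unadjusted p under 0.05 (8 lower and 3 higher in KO hearts), and their median difference was -0.01, with 32 negative and 22 positive. Over the brightest probe sets of all genes, 0.549% passed the adjusted threshold and 11.5% had an unadjusted p under 0.05, 6.33% lower and 5.19% higher in KO hearts. The lowest unadjusted p belonged to Rrad, a small GTPase that restrains L-type channels, at 9.48, 9.14 and 9.24 in KO hearts, against 9.85, 9.82 and 9.68 in wild type hearts (difference -0.50, SE 0.11, limma adjusted p = 0.124). Next came Hrc, a histidine-rich calcium-binding protein of the reticulum, at 10.49, 10.41 and 10.76 in KO hearts, against 11.01, 11.04 and 11.40 in wild type hearts (difference -0.59, SE 0.14, limma adjusted p = 0.129). In both genes all KO hearts lay below all wild type hearts. Gem, a GTPase of the same family as Rrad, lay on the other side, with 4.88, 4.77 and 4.56 in KO hearts, against 4.46, 4.33 and 4.22 in wild type hearts (difference 0.40, SE 0.11, limma adjusted p = 0.215). Sri, sorcin, which binds the ryanodine receptor, was at 8.64, 8.67 and 8.51 in KO hearts, against 8.11, 8.39 and 8.34 in wild type hearts (difference 0.32, SE 0.11, limma adjusted p = 0.290). Gem and Sri were above the wild type range in every KO heart.

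Of the other genes among the 12 with the smallest unadjusted p, 7 had negative differences and 1 a positive one. The negative ones were Tmem38a, a cation channel of the reticulum, at -0.34, Asph, whose locus also encodes junctin, at -0.38, Casq1, the skeletal calsequestrin, at -0.39, and Speg, a kinase of the junction, at -0.27. The anchoring proteins of protein kinase A, Akap7 and Akap6, were at -0.28 and -0.29, and its catalytic subunit gene Prkaca was at -0.22. Rcan1, an inhibitor of the phosphatase calcineurin, was at 0.40, with 10.84, 10.71 and 10.76 in KO hearts and 10.64, 10.55 and 9.92 in wild type hearts. Its groups did not overlap, and wild type replicate 3 was the low one. These 8 genes had limma adjusted p from 0.258 to 0.483. In the whole list, 22 of the 54 measured genes had a positive difference. Fkbp1a and Fkbp1b, which bind ryanodine receptors, were at 0.10 and 0.05 and Cav3, caveolin 3 of the surface membrane, at 0.06, with overlapping groups in each. Fkbp1b was dim, at the same 3.66 in every wild type heart, under the array medians of 4.24 to 4.28, so its difference says little about direction. S100a1, a calcium sensor that acts on the pump and the release channel, was flat at -0.0073.

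**Figure D4:**
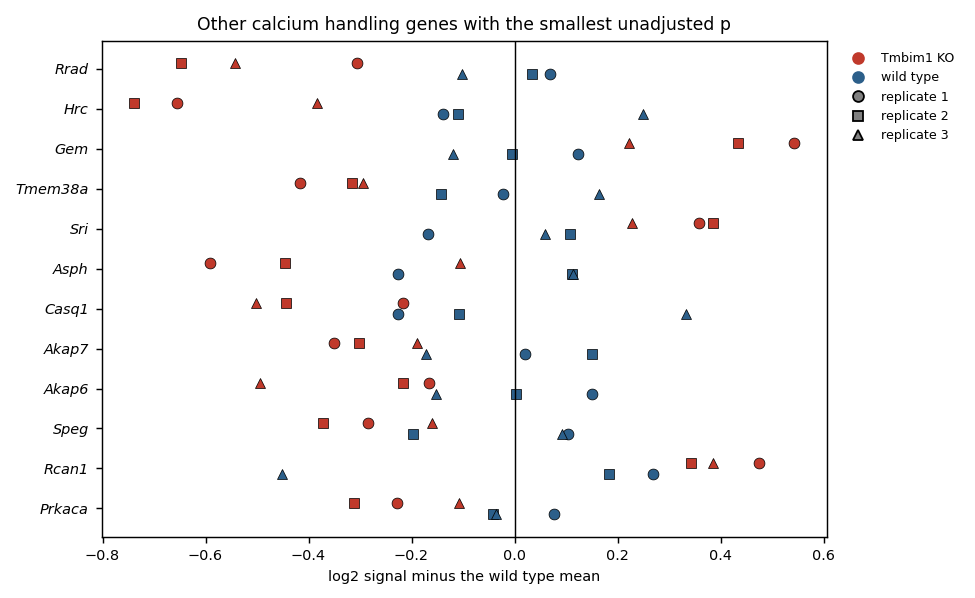
Log2 signal minus the wild type mean (x axis) of the 12 further calcium handling genes with the smallest unadjusted p, in the 3 Tmbim1 KO hearts (red) and the 3 wild type hearts (blue), with point shape giving the replicate number. Gem, Sri and Rcan1 lie to the right in KO hearts, the other 9 genes lie to the left, and none passed the adjusted threshold.

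Ryr2 had the largest difference among the brightest member probe sets, and the genes whose signal followed it most closely across the 6 arrays were looked up among 6871 brightest probe sets with a mean log2 signal of at least 6. The 5 highest Pearson correlations with Ryr2 were those of Kcnk3, a background potassium channel (r = 0.997), Pde4d, a phosphodiesterase that breaks down cyclic AMP (r = 0.995), Vdac1, a channel of the outer mitochondrial membrane (r = 0.990), Rubcn, a regulator of autophagy (r = 0.988), and Gtf2ird1, a transcription factor (r = 0.987). With 6 arrays in 2 groups such values describe these hearts only, and high ones arise when many probe sets are searched. Their differences were -0.53 for Kcnk3, -0.61 for Pde4d, -0.16 for Vdac1, -0.23 for Rubcn and -0.36 for Gtf2ird1, and none passed, with limma adjusted p from 0.095 to 0.627. The negative signs follow from the choice of genes by their likeness to Ryr2 on the same arrays and are not separate results.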

How the data were processed

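Per the submitters' processing notes, the tools were RMA and limma, whose versions are not given in the sources used here. The deposited table holds a log2 signal for each probe set on each array. RMA subtracts background, quantile-normalizes arrays and summarises probes, so a shift of a whole array is removed and differences near either end of the scale can be compressed. Array medians were 4.24 to 4.28. Of 38208 rows, 13 control probe sets were left out. The platform annotation gave 34325 of the remaining 38195 probe sets 1 symbol, 62 several and 3808 none.

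KO and wild type were compared with limma 3.58.1 in R 4.3.3 (lmFit and eBayes on log2 values, two-sided), with Benjamini-Hochberg adjustment over all 38195 probe sets and a threshold of 0.05. Errors of differences are limma standard errors, with n = 3 mice in each group, which limits the precision. A gene's brightest probe set is that with the highest mean over all 6 arrays. All 10 genes and 35 probe sets are reported, with the 12 genes of the wider list that had the smallest unadjusted p and the 5 genes most like Ryr2; S100a1, Fkbp1a, Fkbp1b, Cav3, Postn and the genes of the closing observations were chosen after their values were seen. Within-array differences were tested by exact permutation over arrays. The code was tested on simulated data. The members and lists were chosen with earlier results of these data known.

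The alternatives were a replicate block, trended and robust variance priors, array weights, quantile normalization applied again, centring on array medians, a filter on dim probe sets (mean signal at or under the 40th percentile), 1 probe set for each gene, a gene's probe sets averaged, each array left out in turn, and KO replicate 1 with wild type replicate 3 left out. Scans, scan dates and detection calls were not analysed here.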

Additional observations from a re-analysis of the deposited data

How the results depend on the processing

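The median difference of the 10 brightest probe sets, -0.18, stayed between -0.23 and -0.15 with any single array left out and was -0.20 when a gene's probe sets were averaged. Under the listed alternatives 23 of the 35 member probe sets kept their sign in all, and 12 turned in at least 1; the cause was not tested. The count of member probe sets past the threshold, 0, became 1 with the replicate block (Atp2a2 1443551_at, limma adjusted p = 0.0469) and ran from 0 to 1 with single arrays left out. The replicate numbers were not shown to pair the hearts: deviations of same-numbered arrays correlated at 0.088, 0.18 and 0.045, and 5 of 6 arrays correlated best with their own number, which is a hint from the data only. The block changed no other member call and left the wider list at 0.

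The 11 member probe sets at an unadjusted limma p under 0.05 became 6 without both KO replicate 1 and wild type replicate 3. They became 7 without KO replicate 2, the array whose removal gave the lowest count, and 3 with 1 probe set per gene, where only 10 were tested. Single arrays left out gave 7 to 11. With all arrays kept, a second quantile normalization gave 8. The 29 negative differences became 27 with a second quantile normalization and 10 of 10 with 1 probe set per gene. The count over all probe sets fell with arrays left out, down to 38 without KO replicate 2 and 29 without both arrays, and was 102 with 1 probe set per gene.

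Atp2a2 minus Pln ran from -0.054 to 0.076 with single arrays left out, and was -0.059 without both arrays and -0.26 with the mean of all probe sets. With single arrays left out, values that crossed 0 ran from -0.20 to 0.026 for Atp2a2 1427250_at, -0.044 to 0.011 for Casq2, -0.088 to 0.053, -0.19 to 0.022, -0.071 to 0.097 and -0.063 to 0.49 for 4 probe sets of Trdn, -0.075 to 0.084, -0.091 to 0.14 and -0.046 to 0.16 for 3 of Slc8a1, and -0.19 to 0.053, -0.15 to 0.034 and -0.00066 to 0.15 for 3 of Camk2d. Without both arrays, Slc8a1 gave 0.0090 and -0.092 and Camk2d 0.11 and -0.031. A second quantile normalization turned Casq2 to 0.012 and Slc8a1 to 0.0011, and array weights turned Slc8a1 to 0.011.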

Other observations

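Several calcium genes of the wider list stood high on a single array, KO replicate 1, the one with atrial genes. Sln, sarcolipin, the atrial counterpart of phospholamban, was at 12.17 there, at 2.68 and 2.42 in the other KO hearts and at 2.77, 2.43 and 2.64 in wild type hearts. Ryr3, a ryanodine receptor of other tissues, was at 4.83 there, at 3.27 and 3.29 in the other KO hearts and at 3.20, 2.95 and 3.25 in wild type hearts. Cacna2d2, an auxiliary calcium channel subunit, was at 4.85 there, at 3.39 and 3.29 in the other KO hearts and at 3.39, 3.31 and 3.33 in wild type hearts. Cacna1h, a T-type channel, was at 5.14 there, at 3.90 and 4.01 in the other KO hearts and at 3.80 to 4.50 in wild type hearts. All 9 measured atrial markers had a positive difference over the 3 KO hearts, with a median of 1.19, which is the value of Nppa, the one that passed (limma adjusted p = 0.0496). Without KO replicate 1, a setting chosen after seeing the data, 4 of the 9 were positive and the median was -0.02. The log2 of their summed signal was 15.10, 13.67 and 13.40 in KO hearts and 11.96 to 12.73 in wild type hearts. Outside KO replicate 1 that sum was mostly Nppa, which stood at 13.63 and 13.36 in the other KO hearts and at 11.85 to 12.67 in wild type hearts, and Nppa is also a gene re-expressed under load. For the 10 calcium cycling genes, the median deviation from each gene's mean over arrays was -0.08 in KO replicate 1 and -0.20 and -0.06 in the other KO hearts, and without KO replicate 1 the median KO minus wild type difference was -0.19.

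Genes listed as re-expressed under load were positive in 6 of 6 cases in the same hearts. Of them, 4 passed the threshold (limma adjusted p = 0.00124 for Nppb, 0.00638 for Myh7, 0.011 for Fhl1 and 0.0496 for Nppa). Nppa is thus counted both here and among the atrial markers. Acta1 and Ankrd1 did not pass (limma adjusted p = 0.614 and 0.501). Over the brightest probe sets of all genes 0.549% passed. Endothelial markers had a median of 0.03, smooth muscle and pericyte markers 0.06, skeletal muscle markers -0.07, lymphocyte markers -0.07 and red blood cell markers 0.19. Among these 38 genes, 0 passed the limma threshold and 4 had an unadjusted p under 0.05. That is near the unadjusted share over the brightest probe sets of all genes, 11.5%. As a measure of RNA integrity, the 3′ minus the 5′ signal of the Actb control probe sets was 0.303 to 0.327 in KO hearts and 0.333 to 0.547 in wild type hearts, a narrow gap without overlap. That of Gapdh was -0.08 to -0.05 in KO hearts and -0.07 to 0.17 in wild type hearts, with overlap. The part of RNA integrity in the lower values of the calcium genes was not tested.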
